A study of Mus musculus with 3 samples.

Results

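miR-26 and miR-101 are small RNA families that are known to repress Ezh2, the enzyme of Polycomb repressive complex that methylates histone H3 and keeps developmental genes silent. A microRNA hairpin is cut into a 5p arm and a 3p arm, and as a rule only one of them is loaded into Argonaute as the guide while the other is lost. For miR-26 the guide is the 5p arm and for miR-101 it is the 3p arm, and the seed (bases 2 to 8 of the guide) pairs with the 3′ UTR of the target. The members were chosen by name, as mmu-miR-26a-5p, mmu-miR-26a-2-3p, mmu-miR-26b-5p, mmu-miR-26b-3p, mmu-miR-101a-3p, mmu-miR-101a-5p and mmu-miR-101b-3p. Of these 7, 6 had a row among the 627 mature IDs of the count table, and no row carried the name mmu-miR-101a-5p. The 6 members filled 7 of the 961 deposited rows, because miR-26a-5p has a row for each of its precursors.

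The counts came from ovaries of newborn CD1 mice, cultured in vitro to an age of postnatal day 3 with 0, 10 or 100 μM DEHP (di(2-ethylhexyl) phthalate, a plasticizer). The 0 μM group received the vehicle DMSO, and each of the 3 groups gave 1 small RNA library from pooled ovaries. The concentrations were not replicated and no test was made. Intervals are 95% intervals for counting error alone, and DEHP and anything else that differed between the 3 libraries cannot be told apart. The whole ovary was sequenced, so fewer cells of a type and less of a miRNA per cell cannot be told apart either. With the row of highest total for each mature ID, the libraries held 5253367, 5064602 and 5952274 counts at 0, 10 and 100 μM.

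The ovary markers were read before the members. The gonadal miR-202-5p had 41367, 53172 and 9799 counts at 0, 10 and 100 μM, and of the 6 miRNAs listed for germ cells (the miR-290 to miR-295 group) 5 had a row, with summed counts of 3574, 2520 and 2999. miR-122-5p of liver had 22, 14 and 8 counts and miR-206-3p of skeletal muscle 26, 28 and 4. The labelled tissue was therefore seen through its markers, with 28 counts or fewer for the liver and muscle miRNAs. The cell type markers also moved between libraries. The endothelial miR-126a-3p had a normalized count (count divided by the size factor of its library) of 39638, 44490 and 9105, and miR-143-3p and miR-145a-5p of smooth muscle and stroma summed to 214447, 170354 and 793809, nearly all of it miR-143-3p. The other marker of that list, miR-145a-5p, went from 5353 and 8320 at 0 and 10 μM to 2329 at 100 μM, opposite in sign to miR-143-3p (log2 ratio of 100 to 0 μM -1.20 against 1.92). The summed germ cell list had 2593, 1870 and 5494 normalized counts, with miR-293-3p the most abundant at 0 and 10 μM and miR-294-3p at 100 μM. Within that list miR-294-3p had 336, 266 and 2184 normalized counts and miR-293-3p 1095, 686 and 973. With total counts the direction of the summed list turned between 0 and 100 μM. Its raw sum was lower at 100 μM (2999 against 3574), in a library with a higher total. The ovarian miR-202-5p had 30017, 39447 and 17952. miR-451a and miR-144-3p of red blood cells summed to 131, 134 and 103, of which miR-451a had 120, 131 and 98.9 and miR-144-3p 11.6, 2.23 and 3.66. The sum of miR-142a-3p and miR-223-3p of leukocytes was 76.2, 54.2 and 42.1. In the leukocyte list miR-142a-3p had 45.0, 22.3 and 11.0 normalized counts and miR-223-3p 31.2, 31.9 and 31.1. The part of these shifts in the values of miR-26 and miR-101 was not tested.

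The 5p arms of miR-26 share 1 seed, as the mature sequences of RefSeq (GRCm38.p6) show with the seed in capitals. They are printed because the comparison of the paralogs rests on how little they differ.
miR-26a-5p, chr9:119031811-119031832 and chr10:126995543-126995564, plus strand: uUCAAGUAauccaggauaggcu
miR-26b-5p, chr1:74394324-74394344, plus strand: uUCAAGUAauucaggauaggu
Counted from 1 at the 5′ end of miR-26a-5p, the differences over 21 compared bases were C11U and C21U. No other mouse miRNA in the sequence table has this seed. The 3p arms, which share a different seed, were as follows.
miR-26a-2-3p, chr10:126995581-126995602, plus strand: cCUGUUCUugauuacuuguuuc
miR-26b-3p, chr1:74394360-74394381, plus strand: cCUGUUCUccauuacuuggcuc
miR-26a-1-3p, the 3p arm of the other miR-26a hairpin, had no row in the count table.

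The guide arms of miR-101 carry the same core with a shifted start.
miR-101a-3p, chr4:101346957-101346977, minus strand: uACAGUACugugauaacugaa
miR-101b-3p, chr19:29135338-29135356, plus strand: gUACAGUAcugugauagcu
miR-101c, chr9:3038680-3038698, minus strand: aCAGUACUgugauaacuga
miR-144-3p, chr11:78073047-78073066, plus strand: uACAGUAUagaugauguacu
As annotated, miR-101b-3p begins 1 base earlier than miR-101a-3p, so that bases 2 to 8 differ between them, and over the 18 bases that overlap there was 1 difference, A16G, counted from the 5′ end of miR-101a-3p. The sequence of miR-101c lies wholly within that of miR-101a-3p, from its base 2. The erythroid miR-144-3p shares bases 2 to 7 with miR-101a-3p and had 16, 3 and 2 counts, far under miR-101.

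The hairpins lie apart in the genome, and those of miR-26 sit in genes of a phosphatase family that acts on the tail of the largest subunit of RNA polymerase II. On GRCm38, Mir26a-1 is at chr9:119031796-119031885 on the plus strand in an intron of Ctdspl, and Mir26b at chr1:74394310-74394394 on the plus strand in an intron of Ctdsp1. Mir26a-2, at chr10:126995530-126995613 on the plus strand, lies within Ctdsp2, where GENCODE M21 has it in an exon of a protein-coding and of a retained-intron transcript. Mir101a is at chr4:101346945-101347027 on the minus strand in an exon of the long non-coding RNA E130102H24Rik, and Mir101b at chr19:29135279-29135375 on the plus strand in an intron of Rcl1, a gene of ribosomal RNA processing. The host RNAs were not analysed here. The 2 hairpins from which both arms had a row are given with the mature arms in capitals.
Mir26a-2: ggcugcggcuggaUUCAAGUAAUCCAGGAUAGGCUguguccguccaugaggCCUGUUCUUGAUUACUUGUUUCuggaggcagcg
Mir26b: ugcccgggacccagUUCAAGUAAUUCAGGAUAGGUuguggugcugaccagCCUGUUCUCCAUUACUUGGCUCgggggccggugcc

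Both families have seed matches in the 3′ UTR of Ezh2, which is 405 bases long in GENCODE M21 (chr6:47530139-47530543 on the minus strand). The complement of the miR-26 seed, TACTTGA, was found 1 time, the complement of the miR-101a-3p seed, GTACTGT, 2 times, and the complement of the annotated miR-101b-3p seed, TACTGTA, 1 time. Only the transcript strand was searched. The stretches around them, 24 bases each on the minus strand with the match in capitals, read as follows.
miR-26, chr6:47530285-47530308: aatttgaataaagaaTACTTGAac
miR-101a, chr6:47530474-47530497: cttcaggaaccttgaGTACTGTgg
miR-101a, chr6:47530419-47530442: ttctgaatttgcaaaGTACTGTaa
The match to miR-101b-3p overlaps the last of these, shifted by 1 base. Among the first 405 bases of 15293 mouse 3′ UTRs at least that long, 2.85% held TACTTGA, 2.71% GTACTGT and 3.33% TACTGTA. A match describes the letters only, and the level of Ezh2 was not analysed here.

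The counted level of miR-26a-5p was the highest of the members at 0 and 10 μM and below that of miR-101a-3p at 100 μM. miR-26a-5p had 108307, 110265 and 31042 counts at 0, 10 and 100 μM. Its other row, for the other precursor, had 108280, 110244 and 31024, so that the rows differed by 27, 21 and 18 counts, and reads of Mir26a-1 and Mir26a-2 cannot be told apart from them. miR-26b-5p had 12694, 14740 and 12769 counts, nearly the same number in the 0 and 100 μM libraries. Its rank among the 627 miRNAs was 59, 55 and 46, while that of miR-26a-5p was 16, 14 and 28.

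miR-101a-3p had 47648, 29709 and 32684 counts, and miR-101b-3p 25004, 15835 and 23386. Both were lowest in the 10 μM library as raw counts. miR-101a-3p had the rank 28, 35 and 26, and miR-101b-3p the rank 39, 53 and 32. The larger row of miR-101c repeated the counts of miR-101a-3p within 5, 4 and 1, as its sequence is contained there, and the other row of miR-101c had 513, 281 and 198. The larger row is not described as a separate member. It still counts among the 627 and the 587 miRNAs, and so enters the ranks, library totals, scaling, medians and shares over all miRNAs. Reads that it shares with miR-101a-3p therefore enter the library totals again.

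The 3p arms of miR-26 were scarce. miR-26a-2-3p had 37, 94 and 28 counts, and miR-26b-3p 38, 45 and 5. All 6 members passed the minimum of a mean of 10 normalized counts over the libraries, as did 587 of the 627 miRNAs. The lowest count, 5, was above the floor of 3 counts that a count of 0 would allow.

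The summed share of the library was lowest at 100 μM for miR-26 and at 10 μM for miR-101, whose guides differed in this. The 5p arms of miR-26 held 2.30%, 2.47% and 0.736% of all counts at 0, 10 and 100 μM, with Wilson 95% intervals of 2.29% to 2.32%, 2.45% to 2.48% and 0.729% to 0.743%. The 3p arms of miR-101 made up 1.38% (1.37% to 1.39%), 0.899% (0.891% to 0.908%) and 0.942% (0.934% to 0.950%). Of these, miR-101a-3p held 0.907%, 0.587% and 0.549%, lowest at 100 μM, and miR-101b-3p 0.476%, 0.313% and 0.393%, lowest at 10 μM. At 100 μM the 10 most abundant miRNAs held 70.5% of the counts, against 45.4% at 0 μM and 45.6% at 10 μM, and the choice of scaling decides the sign of several member ratios. Size factors by the median of ratios (1.38, 1.35 and 0.546) were used for the levels, and ratios within a library, which need no scaling, are given after them.

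**Figure D1:**
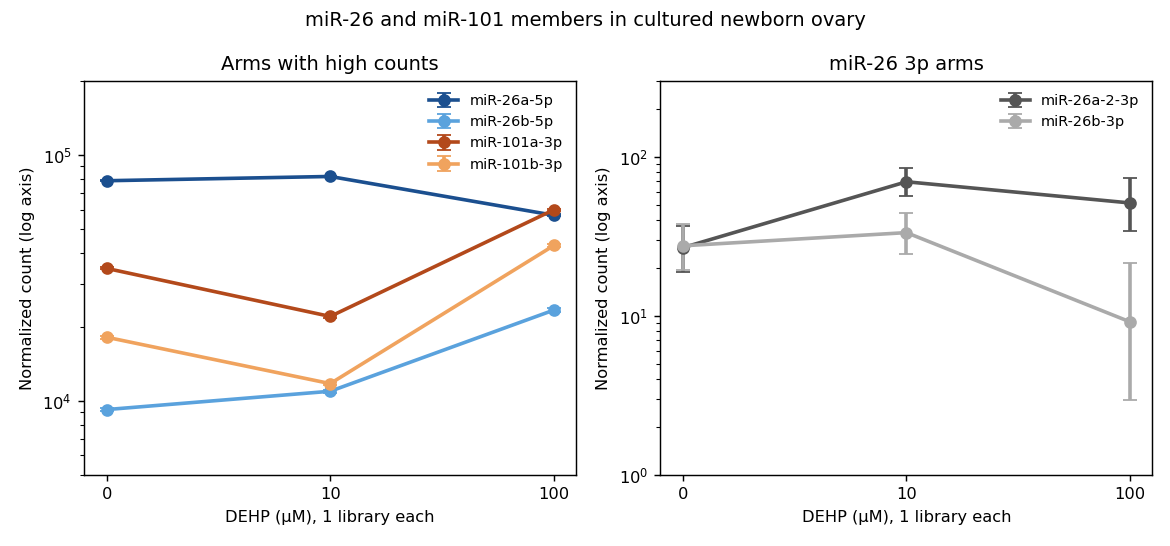
Normalized counts (log axis) of the 6 members against DEHP concentration, with 1 library per point and exact Poisson 95% intervals as bars. In the left panel miR-26a-5p is highest at 0 and 10 μM and lies just under miR-101a-3p at 100 μM, and in the right panel the 3p arms start level and part at 10 and 100 μM.

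In normalized counts miR-26a-5p stood at 78590, 81802 and 56871 at 0, 10 and 100 μM, and miR-26b-5p at 9211, 10935 and 23394. miR-101a-3p stood at 34574, 22040 and 59879, and miR-101b-3p at 18143, 11748 and 42845. The paralogs of miR-26 thus came closer together at 100 μM. Those of miR-101 had the same order of libraries, lowest at 10 μM and highest at 100 μM, but as shares of the total counts both were highest at 0 μM (0.907% and 0.476%). At 0 μM the order was miR-26a-5p, miR-101a-3p, miR-101b-3p, miR-26b-5p. At 100 μM it was miR-101a-3p, miR-26a-5p, miR-101b-3p, miR-26b-5p, and the intervals of miR-101a-3p (59232 to 60532) and miR-26a-5p (56240 to 57507) did not overlap. Small RNAs are captured unequally by sequence, so such an order is one of counts and not of molecules.

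At 10 μM the miR-101 guides were lower than at 0 μM and the miR-26 guides were close to their 0 μM level. The log2 ratio of 10 to 0 μM was -0.65 for miR-101a-3p (95% counting interval -0.67 to -0.63) and -0.63 for miR-101b-3p (-0.66 to -0.60). Of the 587 miRNAs, 68 and 74 had a lower ratio, and the median over all was 0.02. miR-26a-5p had a log2 ratio of 0.06 (0.05 to 0.07) and miR-26b-5p of 0.25 (0.21 to 0.28). These 4 ratios kept their sign under each of the scalings tried.

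The 3p arm miR-26a-2-3p had a log2 ratio of 1.36 at 10 μM (0.81 to 1.97), with 0 of the other 586 miRNAs above it, from 37 and 94 counts. miR-26b-3p, with the same seed, had 0.27 (-0.38 to 0.94), an interval that includes no change. None of the 6 members had a log2 ratio above 2 or below -2, where 0% and 0.681% of all 587 miRNAs did. The median of the 6 was 0.15.

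Between 100 and 0 μM, miR-26b-5p and both miR-101 guides had positive ratios with the size factors and miR-26a-5p a negative one, but with total-count scaling all 4 were negative. miR-26b-5p had a log2 ratio of 1.34 (1.31 to 1.38) with the size factors and -0.17 with total counts. miR-101b-3p had 1.24 (1.21 to 1.27) and -0.28, and miR-101a-3p had 0.79 (0.77 to 0.81) and -0.72. miR-26a-5p had -0.47 (-0.48 to -0.45) and -1.98. The median over all miRNAs moved by -1.50 with total counts. Relative to the median of all miRNAs the values with the size factors were 1.36 for miR-26b-5p, 1.25 for miR-101b-3p, 0.81 for miR-101a-3p and -0.45 for miR-26a-5p.

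The place of a member among all miRNAs, unlike the sign of its ratio, changes little with a scaling that moves all ratios alike. Of the 587, 471 had a lower ratio than miR-26b-5p at 100 against 0 μM, 456 a lower ratio than miR-101b-3p, 408 than miR-101a-3p and 210 than miR-26a-5p. All 4 guides lay inside the bulk of the distribution, whose quartiles were -1.06 and 1.12, or somewhat above it. No member was above 2 or below -2 with the size factors, and over all miRNAs 10.4% were above 2 and 9.37% below -2. The median of the 6 members was 0.86, against -0.01 for all 587, and 4 of the 6 were above 0, as were 291 of the 587, whereas with total counts all 6 members and 84.0% of all miRNAs were below 0.

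The 3p arms of miR-26 had ratios of opposite sign between 0 and 100 μM with the size factors, and both were negative with total counts. The log2 ratio of miR-26a-2-3p was 0.92 (0.17 to 1.68), which became -0.57 with total counts, and that of miR-26b-3p was -1.54 (-3.29 to -0.24), which became -2.97 with total counts and -2.14 with library totals without the 10 most abundant miRNAs. The value of miR-26b-3p rests on 5 counts at 100 μM and was negative under each of the scalings tried.

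From 10 to 100 μM, the log2 ratio was 1.87 for miR-101b-3p (1.84 to 1.90), 1.44 for miR-101a-3p (1.42 to 1.46) and 1.10 for miR-26b-5p (1.06 to 1.13). With total counts these were 0.33, -0.10 and -0.44. miR-26a-5p had -0.52 (-0.54 to -0.51), miR-26a-2-3p -0.44 (-1.11 to 0.18) and miR-26b-3p -1.81 (-3.56 to -0.54), and with total counts these were -2.06, -1.96 and -3.27. No member was beyond 2 with the size factors, where 12.3% of all miRNAs were above 2 and 8.69% below -2. This comparison shares the 100 μM library with the one before it and the 10 μM library with the one before that, so the 3 sets of ratios are not independent.

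Within a library the 2 paralogs of miR-26 can be compared without any scaling, and their ratio was much smaller at 100 μM. miR-26a-5p had 8.53 times the counts of miR-26b-5p at 0 μM (exact 95% interval 8.38 to 8.69), 7.48 times at 10 μM (7.35 to 7.61) and 2.43 times at 100 μM (2.38 to 2.48). miR-26b-5p thus made up 10.5%, 11.8% and 29.1% of the miR-26 guide counts. The ratio was 3.51-fold lower at 100 μM than at 0 μM, a change of -1.81 on the log2 scale, with 108307 and 31042 counts of one paralog and 12694 and 12769 of the other. The intervals of the 3 libraries did not overlap.

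miR-101a-3p and miR-101b-3p kept nearly the same ratio from 0 to 10 μM. It was 1.91 in the 0 μM library (1.88 to 1.94), 1.88 in the 10 μM library (1.84 to 1.91) and 1.40 in the 100 μM library (1.37 to 1.42). The intervals of 0 and 10 μM overlapped, and that of 100 μM lay below both. miR-101b-3p made up 34.4%, 34.8% and 41.7% of the miR-101 guide counts. In each family, therefore, the paralog with fewer counts took a larger share at 100 μM.

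The number of mismatches that was allowed in counting is not given in the sources used here. Because miR-26a-5p and miR-26b-5p differ by 2 bases, and miR-101a-3p and miR-101b-3p by 1 within their overlap, reads with errors or trimmed ends could be counted for the other paralog or for both, and the levels of the paralogs are uncertain by that amount. The part of shared reads in the ratios was not tested.

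The change of the miR-26 ratio was not among the extremes of this data set. Of the 627 miRNAs, 529 had a mature sequence in the RefSeq table, and 41 seed families had at least 2 members that averaged 100 normalized counts or more. Between 100 and 0 μM the log2 ratios of the members of a family spanned a median of 1.30, and 14 of the 41, miR-26 included, spanned at least the 1.81 of miR-26. Among the 28 families of 2 members the median was 0.89 and 7 reached 1.81. At 10 μM the span of miR-26, 0.19, was the median of the 41. The difference between miR-101a-3p and miR-101b-3p was 0.02 at 10 μM and 0.45 at 100 μM, under the medians of the families of 2 (0.15 and 0.89). Families whose members had the same ratios, such as miR-199a-3p with miR-199b-3p (span 0), were kept. Their presence can only lower these medians.

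**Figure D2:**
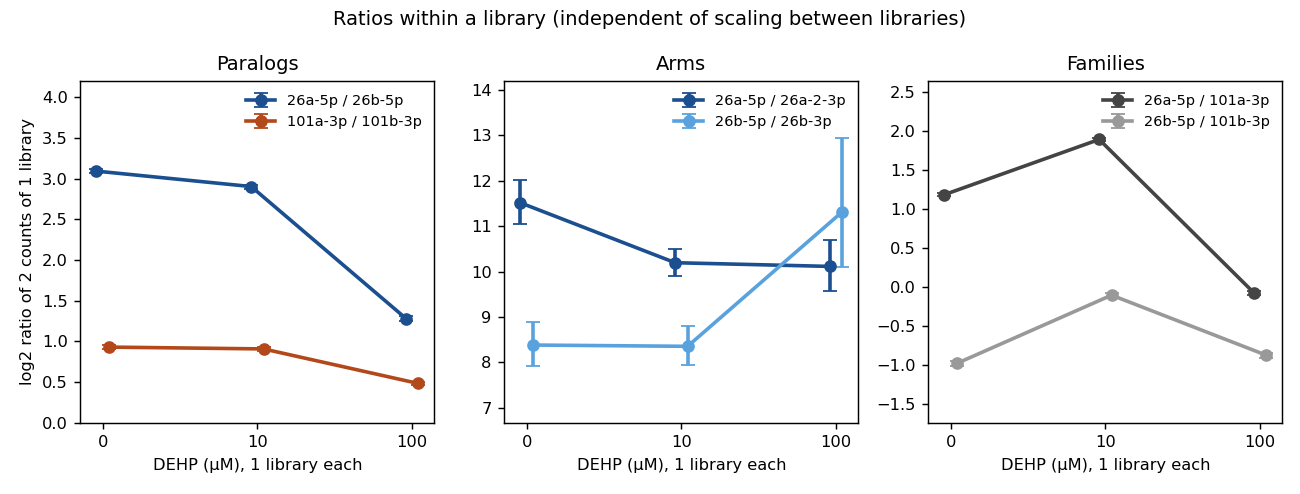
log2 ratio of 2 counts of the same library against DEHP concentration, for paralogs (left), arms (middle) and families (right), with 1 library per point and exact 95% counting intervals as bars. The ratio of miR-26a-5p to miR-26b-5p goes from 3.09 at 0 μM to 1.28 at 100 μM, and the ratio of the arms of miR-26b from 8.38 to 11.3.

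The ratio of 5p to 3p counts was highest at 100 μM for miR-26b and at 0 μM for miR-26a-5p over miR-26a-2-3p. miR-26b-5p had 334 times the counts of miR-26b-3p at 0 μM (243 to 472), 328 times at 10 μM (245 to 449) and 2554 times at 100 μM (1094 to 7867). The ratio at 100 μM was 7.64-fold the ratio at 0 μM, and its interval lay above the others, although it rests on 5 counts of the 3p arm. miR-26a-5p, whose counts come from both of its hairpins, had 2927 times the counts of miR-26a-2-3p at 0 μM (2124 to 4158), 1173 times at 10 μM (958 to 1452) and 1109 times at 100 μM (767 to 1669). Here the step was between 0 and 10 μM, and the intervals of 10 and 100 μM overlapped.

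Set side by side, the 3p arms were level at 0 μM, with 37 and 38 counts and a ratio of miR-26a-2-3p to miR-26b-3p of 0.974 (0.602 to 1.57). In the 10 μM library the ratio was 2.09 (1.45 to 3.05), and in the 100 μM library it was 5.60 (2.13 to 18.6). The 5p arm of Mir26a-2 has no count of its own, so this ratio is not given for the 5p arms of these hairpins.

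Over all hairpins, changes between arms were larger at 100 μM than at 10 μM. Among 174 hairpins whose arms had matching names and each averaged 10 normalized counts or more, the log2 ratio of 5p to 3p changed by a median of 1.47 in absolute value between 100 and 0 μM and of 0.42 between 10 and 0 μM. With 0.5 normalized counts added, miR-26b changed by 2.88 at 100 μM, and 32 of the 174 hairpins (18.4%), miR-26b included, changed by at least as much. For miR-26a-2, with the 5p count of both hairpins, the change was -1.39, which 92 of the 174 reached. At 10 μM miR-26a-2 changed by -1.30, and 14 of the 174 (8.05%) reached that size, while miR-26b changed by -0.02.

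The balance between the families also differed by library. The summed miR-26 guides had 1.67 times the counts of the summed miR-101 guides at 0 μM, 2.74 times at 10 μM and 0.781 times at 100 μM. miR-26 thus made up 62.5% (62.3% to 62.7%), 73.3% (73.1% to 73.5%) and 43.9% (43.6% to 44.2%) of the guide counts of the families. At 10 μM the shift came with fewer miR-101 counts (45544 against 72652) and nearly the same miR-26 counts (125005 against 121001). At 100 μM the miR-26 counts were 43811 and the miR-101 counts 56070. For the paralogs with fewer counts, the ratio of miR-26b-5p to miR-101b-3p was 0.508, 0.931 and 0.546 in the 0, 10 and 100 μM libraries. Between 0 and 10 μM this ratio changed by 0.87 on the log2 scale, against 0.71 for miR-26a-5p to miR-101a-3p, and between 0 and 100 μM by 0.11, against -1.26.

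Together the guides of both families held 3.69% of the library at 0 μM, 3.37% at 10 μM and 1.68% at 100 μM. Their sum was 193653, 170549 and 99881 counts, and miR-26a-5p made up most of the difference between 0 and 100 μM, with 108307 against 31042. The direction turned with the size factors, which gave a sum of 140519, 126525 and 182988 normalized counts.

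The miRNAs whose pair of log2 ratios (10 against 0 μM and 100 against 0 μM) lay closest to each guide were taken from 369 others that averaged 100 normalized counts or more. This likeness spans 3 libraries only. Nearest to miR-26a-5p were miR-669c-5p (distance 0.08), miR-214-3p (0.11) and miR-450a-5p (0.12), and nearest to miR-26b-5p were miR-335-3p (0.03), miR-30b-3p (0.04) and miR-330-3p (0.06). The counts of miR-335-3p, 6612, 7773 and 6528, show the flat raw profile of miR-26b-5p. The nearest neighbours of the miR-101 guides lay farther away. miR-300-3p (0.14), miR-350-3p (0.17) and miR-296-3p (0.19) were nearest to miR-101a-3p, and miR-666-5p (0.26), miR-199a-5p (0.30) and miR-370-3p (0.31) to miR-101b-3p. miR-199a-5p had 105993, 61774 and 81922 counts. No member or row of miR-101c was in the pool.

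Other miRNAs known to repress Ezh2 were described as a list of 13, of which 12 had a row and passed the minimum, and miR-124-3p had none. At 100 against 0 μM the median log2 ratio of the 12 was -0.02 (-1.53 with total counts), 1 was above 2 and 0 were below -2, where 10.4% and 9.37% of all miRNAs were. With total counts 0 of the 12 were above 2 and 4 below -2, where 0.675% and 35.9% of all miRNAs were. The 1 above 2 was miR-217-5p, at 2.06 (0.55 with total counts), with 121, 95 and 201 counts. The let-7 family, which also represses Ezh2 and holds back the stem cell factor Lin28, had ratios on either side of 0. With the size factors let-7b-5p had -1.10, let-7c-5p -0.76, let-7i-5p 1.51 and let-7f-5p 1.89, and with total counts these were -2.62, -2.27, -0.0089 and 0.37. miR-138-5p had -1.42 (-2.90 with total counts) from 82 and 12 counts, and miR-214-3p -0.57 (-2.09) from 11117 and 2964. At 10 μM the median of the 12 was 0.09, with values between -0.32 for let-7i-5p and 0.60 for let-7c-5p. Of the 12, 0 were beyond 2, and over all miRNAs 0% were above 2 and 0.681% below -2. The lowest of these 12 at 10 μM, -0.32, was above the -0.65 and -0.63 of miR-101a-3p and miR-101b-3p.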

How the data were processed

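The deposited table held raw counts, with a row for each mature miRNA of each precursor, from single-end reads of small RNA. The methods give trimming of adapters and low-quality bases, bowtie2 against the mouse genome, and quantification with miRDeep2. Versions, the miRBase release and the mismatch setting are not given in the sources used here. The submitters' processing notes name mm10 and DESeq2. With the row of highest total for each mature ID, none had under 10 counts at 0 μM. The members and lists were chosen with earlier results of these data known.

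Of the rows of a mature ID, the one with the highest total was used (79 IDs had several). Size factors came from DESeq2 1.42.0 (R 4.3.3) and alternatives from edgeR 4.0.16. Ratios were log2 of normalized counts plus 0.5, for a mean of at least 10, and a log2 ratio beyond 2 was counted as a large change. That is the fold part of the threshold in the methods of the study, whose FDR part was not used because no p-value was computed. The fold changes of the study were not recomputed, and the same cut on these plain ratios need not select the same miRNAs. Named miRNAs were the 7 members, the other products of their hairpins, and, for each member with a mean of at least 100, the 3 miRNAs at the smallest Euclidean distance. Lists of cell type markers and of other miRNAs that repress Ezh2 were described beside them. Intervals of ratios were Clopper-Pearson intervals (exact) for how 2 counts split, those of levels exact Poisson and those of shares Wilson intervals, all at 95%. They cover counting error only, because there was 1 library per concentration. PCR copies, which cannot be told from separate molecules when reads carry no molecular identifier, are not allowed for either. Sequences came from RefSeq (GRCm38.p6) and gene structures from GENCODE M21 on the same build, mm10. The script was tested on simulated counts. Python 3.11.15 was used for the other steps.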

Additional observations from a re-analysis of the deposited data

How the results depend on the processing

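No paired analysis was possible because there was 1 library per concentration, and leaving out a replicate was not possible either. The number of members beyond a log2 ratio of 2, 0 in each comparison with the size factors, moved with the scaling and the threshold. Scaling to total counts gave 1 at 100 against 0 μM (miR-26b-3p) and 2 at 100 against 10 μM (miR-26b-3p and miR-26a-5p), and library totals without the 10 most abundant miRNAs gave 1 in each of them, miR-26b-3p. Of all miRNAs, 36.6% and 39.5% were beyond 2 with total counts (4 above and 213 below at 100 against 0 μM, 8 and 226 at 100 against 10 μM) and 23.7% and 22.5% without the 10 most abundant (28 and 112, 31 and 102). A threshold of 1 gave 1 member at 10 against 0 μM, 3 at 100 against 0 μM and 4 at 100 against 10 μM, where 6.64%, 52.5% and 54.2% of all miRNAs were beyond it. With total counts the sign changed at 100 against 0 μM for miR-26a-2-3p (-0.57), miR-26b-5p (-0.17), miR-101a-3p (-0.72) and miR-101b-3p (-0.28), and at 100 against 10 μM for miR-26b-5p (-0.44) and miR-101a-3p (-0.10). Total counts shifted the median of all miRNAs by -1.50 and -1.53 in these comparisons. Totals without the 10 most abundant moved the median by -0.62 and -0.65, and TMM, the upper quartile and size factors from all rows by at most 0.08. Ratios within a library do not use the scaling, and the changes of the 4 run (miR-26a-5p to miR-26b-5p, miR-101a-3p to miR-101b-3p and the arms of miR-26a-2 and miR-26b) stayed within their counting intervals with 1 added and, for those with miR-26a-5p, the member with several rows, with summed rows and with the lower row. Under the other scalings, 40 of 90 member ratios stayed within the counting interval, 44 kept their sign but left it and 6 reversed. Depth limits the 3p arms of miR-26 most, with 28 and 5 counts at 100 μM.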
